A study of Homo sapiens with 9 samples.

Results

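The comparison described here is MDA-MB-231 cells carrying shAHR#3, a short hairpin RNA against AHR, with the same cells carrying the control vector pLKO-GFP, which is the contrast that shows what 1 of the 2 AHR hairpins of the study did by itself. It uses 6 of the 9 libraries of the series, 3 of each group, chosen by their genotype labels, and all 60649 genes of the count table. The 3 libraries with the other hairpin, shAHR#2, were left out of the fit and appear only where both hairpins are set side by side. The MDA-MB-231 line was established from a triple-negative breast cancer and was grown in DMEM with fetal bovine serum and is labelled as proliferating. No ligand or drug treatment is described for these libraries, apart from the selection drug named next. Both groups had been infected with lentivirus and, by the study's methods, selected with puromycin, so each library comes from a pool of infected cells and a single hairpin sequence represents the depletion. Nothing in the labels says whether the replicates were separate infections or separate dishes of 1 infected pool, and p-values therefore measure the spread between these libraries.

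The aryl hydrocarbon receptor (AhR), encoded by AHR, is a ligand-activated transcription factor. After binding a ligand it leaves its chaperone complex for the nucleus, pairs with ARNT and binds xenobiotic response elements, whose core is GCGTG, at genes such as CYP1A1, CYP1B1 and TIPARP. It is also known for holding back inflammatory and interferon programmes in some tumor cells, and TIPARP, one of its targets, lowers the activity of TBK1, the kinase downstream of the DNA sensor cGAS and its adaptor STING. Interferon-stimulated genes carry the interferon-stimulated response element in their promoters, which holds a repeated GAAA.

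Some promoters are shown because the 2 lists they come from, interferon-stimulated genes and AhR target genes, are described below. Each line is the 250 bases before the first RefSeq start of the gene on GRCh38.p14, read 5' to 3' on the gene's strand. Capitals mark a repeat of GAAA with any 2 bases between, on either strand, in ISG20, ISG15 and IFIT5, a repeat of GAAA with any 1 base between in OAS1, and GCGTG on either strand in CYP1A1 and SCIN. OAS1 lies at chr12:112906712-112906961, ISG20 at chr15:88638766-88639015, ISG15 at chr1:1013247-1013496, IFIT5 at chr10:89414318-89414567 and SCIN at chr7:12570470-12570719, all on the plus strand, and CYP1A1 at chr15:74725529-74725778 on the minus strand.
OAS1: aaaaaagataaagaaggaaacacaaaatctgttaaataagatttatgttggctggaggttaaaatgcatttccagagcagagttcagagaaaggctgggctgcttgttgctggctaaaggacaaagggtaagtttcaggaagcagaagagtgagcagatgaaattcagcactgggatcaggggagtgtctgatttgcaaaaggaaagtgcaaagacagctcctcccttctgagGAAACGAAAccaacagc
ISG20: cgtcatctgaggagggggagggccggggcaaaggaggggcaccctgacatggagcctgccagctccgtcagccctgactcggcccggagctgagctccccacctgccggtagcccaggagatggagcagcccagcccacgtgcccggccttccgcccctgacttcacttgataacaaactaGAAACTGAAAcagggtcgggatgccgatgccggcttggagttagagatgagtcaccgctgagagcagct
ISG15: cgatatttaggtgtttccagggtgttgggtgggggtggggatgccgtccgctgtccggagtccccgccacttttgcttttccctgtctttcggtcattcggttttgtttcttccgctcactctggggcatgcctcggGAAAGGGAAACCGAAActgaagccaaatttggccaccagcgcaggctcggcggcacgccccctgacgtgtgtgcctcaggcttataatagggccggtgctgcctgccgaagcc
IFIT5: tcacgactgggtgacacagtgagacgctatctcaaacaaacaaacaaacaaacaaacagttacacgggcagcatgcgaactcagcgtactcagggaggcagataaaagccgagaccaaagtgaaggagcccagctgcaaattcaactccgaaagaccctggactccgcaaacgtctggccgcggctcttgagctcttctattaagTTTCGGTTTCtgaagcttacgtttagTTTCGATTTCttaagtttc
CYP1A1: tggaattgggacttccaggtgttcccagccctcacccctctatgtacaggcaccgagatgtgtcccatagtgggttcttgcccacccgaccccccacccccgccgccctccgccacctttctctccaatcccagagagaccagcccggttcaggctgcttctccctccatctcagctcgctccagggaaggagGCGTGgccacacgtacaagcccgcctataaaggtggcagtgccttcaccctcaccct
SCIN: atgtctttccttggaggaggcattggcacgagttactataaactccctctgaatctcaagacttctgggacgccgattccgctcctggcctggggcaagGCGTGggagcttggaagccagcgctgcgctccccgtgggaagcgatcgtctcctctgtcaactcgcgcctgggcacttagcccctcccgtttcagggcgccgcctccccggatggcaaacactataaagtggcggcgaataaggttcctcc

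OAS1 held its match 17 bases before the start, ISG20 at 69, ISG15 at 113 and 107 in 2 overlapping matches, and IFIT5 at 45 and 19. The core GCGTG stood 57 bases before the start in CYP1A1 and 151 in SCIN. The GAAA repeat with 2 bases between was found in 3.07% of 27305 promoters and in 28 of the 49 tested interferon-stimulated genes with a promoter in the table (57.1%). The share was 57.6% among the 33 of these called higher with shAHR#3 and 56.2% among the other 16. ISG15 and IFIT5, which both hold it, moved in opposite directions, as given below. The spacing with 1 base between, searched after OAS1 was seen to hold none with 2, was found in 2.76% of promoters and in 12 of those 49. The short core GCGTG was found in 31.9% of all promoters, 43.6% of those of genes called higher and 48.4% of those of genes called lower, beside 45.6% of those of all genes tested.

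Total counts ran from 17407688 to 19509030 in the pLKO-GFP libraries and from 19436825 to 20374460 in the shAHR#3 libraries. Of the genes listed, 14008 had enough counts to be tested with edgeR's quasi-likelihood test. Levels are CPM, a gene's counts relative to the total count of its library, scaled by edgeR's TMM method, and a call is a Benjamini-Hochberg adjusted p under 0.05. Replicates were close, with a common biological coefficient of variation of 3.17%, and 90.9% of the variance of the 500 most variable genes lay on the first principal component, which separated the groups. No pair of replicates agreed within sampling noise, as the chi-square per degree of freedom ran from 1.83 to 4.25. Mitochondrial transcripts took 7.33% to 8.82% of counts in the control and 7.74% to 7.92% with shAHR#3. Markers of a claudin-low breast cancer line were present at a summed 7368 to 7447 CPM in the control and 9217 to 9293 with shAHR#3. The luminal receptors ESR1 and PGR were at 0 to 4 counts and 0 counts in every library. Luminal markers as a list were not absent, at a summed 695 to 729 CPM in the control and 882 to 936 with shAHR#3.

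The transcript that the hairpin targets fell. AHR, identifier ENSG00000106546.14, spans 16916359 to 17346152 on chromosome 7 of GRCh38 and stood at 115, 119 and 122 CPM in pLKO-GFP replicates 1 to 3 and at 47.0, 53.1 and 45.0 with shAHR#3. The groups did not overlap, as in 59.4% of all genes tested, and 40.7% ± 3.54 (SD, n = 3) of the control level was left. On the log2 scale edgeR gave a change of -1.30, with a standard error of 0.05 and an adjusted p of 1.01e-20. Bulk RNA cannot tell apart a lower level in every cell and a mixture of depleted and undepleted cells.

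OAS1, SCIN, FABP4 and CTSD were also chosen to mark the comparison, and their values are given as a description. OAS1 (chromosome 12, 112905856 to 112933219), which makes the messenger 2-5A on binding viral double-stranded RNA, went from 0.80, 1.26 and 0.97 CPM to 10.2, 10.5 and 10.2 (log2 fold change 3.33, standard error 0.17). SCIN (chromosome 7, 12570577 to 12660182), an actin-severing protein of the gelsolin family, was at 1.48, 2.26 and 1.54 CPM and then at 9.34, 8.39 and 9.33 (log2 fold change 2.34, standard error 0.16). CTSD (chromosome 11, 1752752 to 1764573), the lysosomal protease cathepsin D, was abundant throughout, at 638, 655 and 664 CPM in the control and 920, 925 and 1009 with shAHR#3 (log2 fold change 0.54, standard error 0.03). FABP4, a fatty acid carrier on chromosome 8, had 1, 0 and 1 counts in the control libraries and 381, 397 and 356 with shAHR#3. It was therefore at least 122-fold higher, taking 3 counts per control library as the limit of what could be missed. All 4 were higher in every shAHR#3 library than in any control library, and groups that do not overlap, in either direction, were found in 8314 of the 14008 genes tested.

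**Figure D1:**
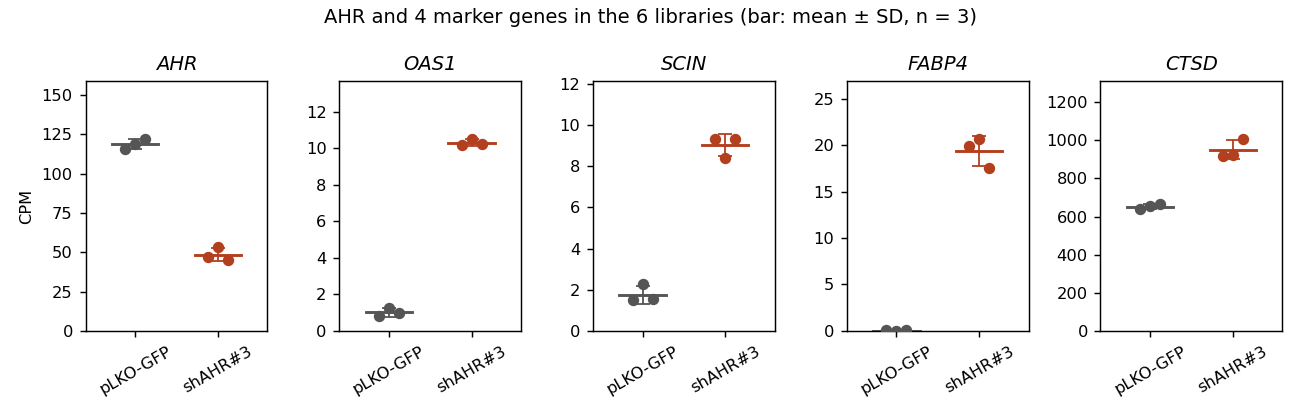
Level in CPM of AHR, OAS1, SCIN, FABP4 and CTSD, each panel on its own axis from 0, with one point per library and the mean ± SD of the 3 libraries of pLKO-GFP (grey) and shAHR#3 (red). The AHR points sit between 45.0 and 53.1 CPM with shAHR#3, all under the control points, and the other 4 genes sit above theirs.

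Of the 14008 genes tested, 7702 passed the threshold (55.0%), 3864 as higher with shAHR#3 (27.6%) and 3838 as lower (27.4%). Most of these changes were small. The median log2 fold change was 0.36 among genes called higher and -0.34 among genes called lower, and 64.7% and 71.3% of the calls in each direction were under 0.5. At least 2-fold changes were called in 580 genes higher (4.14%) and 338 lower (2.41%). With a mean of at least 50 counts required they numbered 256 and 119. Testing against a change of 2-fold instead of against 0 (edgeR's glmTreat) left 271 and 133.

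The 10 largest rises were taken among genes whose mean log2 CPM was 2 or more. LAMA4, the laminin alpha chain of vessel and fat basement membranes, went from 5.71, 6.08 and 6.25 CPM to 113, 107 and 105 (log2 fold change 4.17, standard error 0.06, adjusted p = 3.14e-30). CD96, a receptor known from T and NK cells, went from 5.31, 4.78 and 5.74 CPM to 81.9, 87.6 and 85.2 (4.01, standard error 0.07, adjusted p = 4.66e-29). Both were over 10-fold higher in all 3 libraries. PGF, placental growth factor, rose by 3.51 from a mean of 5.43 CPM, and PIK3CG, the catalytic subunit of PI3-kinase gamma, by 4.45 from 0.73 CPM. RIPOR3, TM4SF18, SOBP, DAAM2 and ADGRG2, with log2 fold changes between 3.51 and 4.99, and FABP4 made up the rest of the 10.

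The 10 largest falls, by the same rule, left their genes at a few counts or CPM. PDE1C, a calmodulin-dependent phosphodiesterase, was at 265, 293 and 340 counts in the control and at 0, 6 and 6 with shAHR#3 (log2 fold change -6.22, standard error 0.24, adjusted p = 3.47e-20). CCBE1, an extracellular protein needed for lymphatic vessel growth, went from 265, 300 and 311 counts to 5, 3 and 6 (-5.97, standard error 0.20, adjusted p = 8.90e-22). The axon guidance ligand SEMA5A fell by 4.52 and the teneurin TENM2 by 4.22 on the log2 scale. MMP1, the interstitial collagenase, fell by 4.16, from 8.16, 8.60 and 7.38 CPM to 0.21, 0.73 and 0.39. RIMS2, ADAMTS6, APCDD1L and MB21D2 fell by 2.61 to 3.49. THBS1-IT1, which lies within THBS1, fell by 3.84, and reads of overlapping genes cannot be told apart here because the use of strand in counting is not stated.

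Genes at or under 3 counts in every library of a group were counted apart, since a fold against 0 is only a bound. With shAHR#3, 38 genes appeared in this sense (31 of them protein-coding) and 25 disappeared (18 protein-coding). After FABP4, the genes that appeared with the highest levels were PLCB1, a phospholipase C, at 0, 2 and 1 counts and then 67, 94 and 111 (at least 29.2-fold), PLIN4, a lipid droplet coat protein (at least 26.1-fold), and the zinc transporter SLC30A8 (at least 25.3-fold). ACVRL1, a receptor of the TGF-beta family known from endothelium, went from 0 counts in all 3 control libraries to 53, 54 and 55 (at least 17.4-fold). FOXA1, the pioneer factor of luminal breast cells, went from 0 in all 3 to 25, 26 and 25 counts (at least 8.18-fold), and was picked for description after its values were seen. The highest among those that disappeared were PSG1, a pregnancy-specific glycoprotein (92, 111 and 106 counts, then 1, 3 and 0, at least 35.3-fold lower), GPR65, a proton-sensing receptor (at least 18.0-fold lower), NKX2-1, a lung and thyroid transcription factor (at least 16.9-fold lower), and the neural factor POU3F2 (25, 29 and 43 counts, then 0, 2 and 0). Many of these changes were not particular to shAHR#3. In a fit of all 9 libraries, mean CPM with shAHR#2 was 4.56 for ACVRL1, 5.29 for SLC30A8 and 1.35 for FOXA1. It was 0 for PSG1, GPR65, NKX2-1 and POU3F2. Others were not shared, such as PCSK6, at 1.42 CPM with shAHR#3 and 0.04 with shAHR#2. CSF3, which disappeared with shAHR#3, was at 0.94 CPM with shAHR#2 and 0.91 in the control.

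Among AhR partners and targets the response was split. Of 18 tested members of the list, 8 were called higher and 8 lower, with a median log2 fold change of -0.04. AHR itself, which the hairpin targets, is counted among the lower and the marker SCIN among the higher. The shares over all genes tested were 27.6% higher and 27.4% lower. CYP1A1, the cytochrome P450 that is the usual readout of AhR activity, was low in the control at 71, 97 and 90 counts and fell to 41, 44 and 28 (-1.23, standard error 0.19, adjusted p = 2.58e-06). CYP1B1, a P450 gene of the same family, fell from 170 ± 3.30 to 126 ± 3.04 CPM (SD, n = 3 each; -0.43, adjusted p = 2.00e-12). NQO1, a quinone reductase, fell by 0.70 and the cytokine IL24 by 3.32, while TIPARP, the PARP-family repressor of AhR, fell by 0.17, from 89.8, 95.9 and 94.5 CPM to 82.5, 86.0 and 80.4 (adjusted p = 6.13e-04). Other genes listed as targets rose. ALDH3A1, an aldehyde dehydrogenase, went from a mean of 3.53 to 19.0 CPM (2.42, standard error 0.11, adjusted p = 3.39e-18), and the EGF family ligand EREG rose by 1.46 and the transporter ABCG2 by 0.86. Of the receptor complex, ARNT rose by 0.22 and the chaperone PTGES3 by 0.28, while ARNT2 fell by 0.63. AHRR, the AhR repressor, had 0 to 2 counts in every library and was not tested.

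Interferon-stimulated genes were called higher in 41 of 61 tested members and lower in 5, with a median log2 fold change of 0.29. The background over all genes tested was 27.6% higher and 27.4% lower, with a median of 0.003. With DESeq2 in place of edgeR 36 were higher, and without any 1 library between 34 and 40. Most members moved by little, and 6 of the 41 rose at least 2-fold. Antiviral effectors rose in 18 of 26. After OAS1 the largest were OASL, an oligoadenylate synthetase-like protein (12.8, 15.1 and 11.7 CPM, then 34.0, 36.6 and 34.1, log2 fold change 1.40, adjusted p = 9.07e-16), and ISG20, an exonuclease (2.27 to 5.21 CPM, 1.19, adjusted p = 7.70e-07). SAMD9 and SAMD9L, restriction factors for poxviruses, rose by 1.11 and 1.01, OAS2 by 0.99 and the membrane protein IFITM3 by 0.68. ISG15, the ubiquitin-like modifier, rose from 12.3, 14.2 and 11.6 CPM to 19.4, 16.6 and 19.3 (0.54, standard error 0.09, adjusted p = 9.35e-06). Of its conjugation system, the E1 enzyme UBA7 rose by 0.48 and the E2 enzyme UBE2L6 by 0.28, whereas the ligase HERC5 fell by 0.18. IFIT5, which binds viral RNA, fell from 62.5, 67.3 and 65.6 CPM to 39.9, 41.3 and 39.5 (-0.70, adjusted p = 1.66e-13), and DDX60L and BST2 fell by 0.49 and 0.44.

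**Figure D2:**
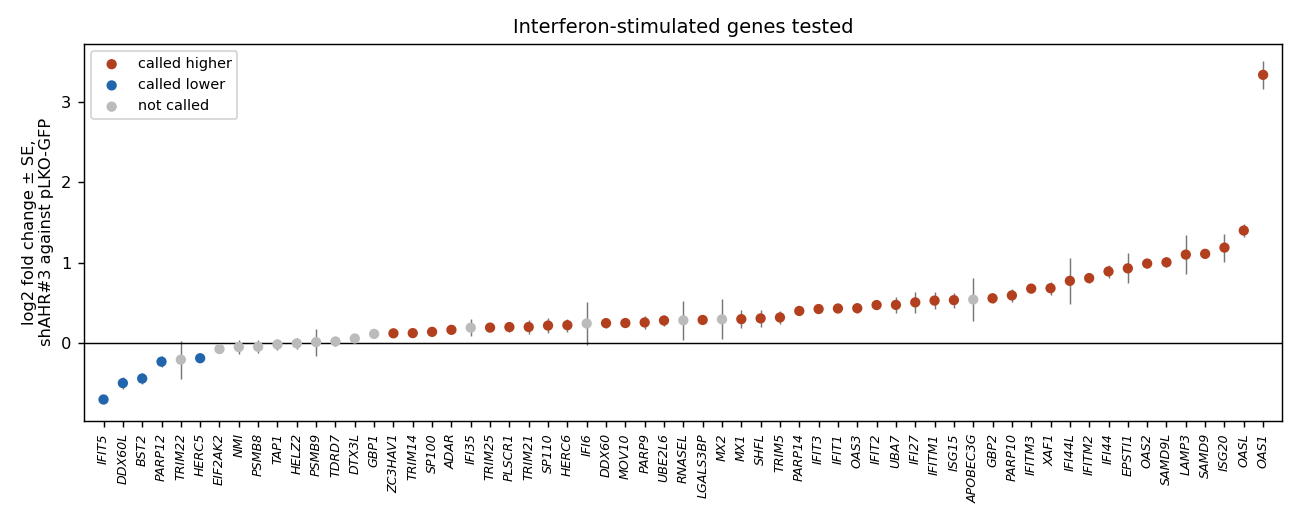
Log2 fold change (shAHR#3 against pLKO-GFP) ± standard error of the 61 interferon-stimulated genes tested, in order of size, coloured by call. The order runs from IFIT5 at -0.70 to OAS1 at 3.33, with OASL next to OAS1 at 1.40, and 41 genes are called higher and 5 lower.

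Upstream of these genes the calls went both ways. Of 16 tested genes for nucleic acid sensing and interferon induction, 6 were called higher and 4 lower. The shares over all genes tested were 27.6% and 27.4%. STING1, which encodes the adaptor STING, was at 3.25, 6.13 and 3.90 CPM in the control and 7.62, 8.34 and 10.6 with shAHR#3 (0.99, standard error 0.16, adjusted p = 4.81e-06). The sensor gene CGAS rose by 0.26, the RNA helicases IFIH1 and DHX58 by 0.42 and 0.86, and IRF3 by 0.19, while TBK1 fell by 0.19 (62.4, 60.6 and 56.8 CPM, then 55.3, 51.2 and 50.7, adjusted p = 0.00144), MAVS by 0.28 and AIM2 by 0.69. The interferon outputs were at or near the limit of detection. IFNB1, IFNA1, IFNL2 and IFNL3 had 0 counts in all 6 libraries. CXCL10 had 0, 1 and 1 counts in the control and 3, 4 and 5 with shAHR#3, and CCL5 had 0, 0 and 0 and then 1, 3 and 0, and both fell below the count filter and were not tested. The CXCL10 counts did not overlap between the groups, as in 59.4% of all genes tested, and counts this low cannot establish a change. In interferon signalling 8 of 17 tested members rose and 5 fell. STAT2 rose by 0.22. The inhibitors diverged, with USP18 1.08 and SOCS3 0.74 higher and SOCS1 1.16 lower. Without pLKO-GFP replicate 2 the fall of SOCS1 missed the threshold (-0.88, adjusted p = 0.0638) and 3 members of the list were lower.

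NF-kB subunits and inhibitors and the cytokines were mixed. Of 13 tested genes of the NF-kB system 4 were higher and 2 lower, with the kinase gene MAP3K14 up by 0.99, the inhibitor NFKBIA up by 0.68 and the deubiquitinase gene TNFAIP3 down by 0.48. Of 28 chemokine and cytokine genes 12 were higher and 9 lower, where 27.6% of all genes tested were higher and 27.4% lower. The neutrophil chemokines CXCL1 and CXCL8 rose by 1.50 and 1.15, the latter from 9.88, 9.50 and 9.07 CPM to 20.4, 22.3 and 20.4 (adjusted p = 9.38e-13), and IL6 rose by 1.07. IL32, CX3CL1 and IL11 fell by 2.15, 1.45 and 1.02. CSF3, at 13, 21 and 18 counts in the control and 1, 2 and 0 with shAHR#3, was at least 5.90-fold lower. CD274, which encodes the checkpoint ligand PD-L1, was at 21.6, 21.8 and 21.3 CPM and then 19.9, 21.8 and 18.6, which did not pass the threshold (-0.10, standard error 0.08, adjusted p = 0.264).

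Most genes of class II antigen presentation had lower RNA levels. Of 8 tested class II genes 7 were called lower and 0 higher, with a median of -1.44. Across all genes tested 27.4% were lower and 27.6% higher. HLA-DPA1 went from 8.68, 8.20 and 9.07 CPM to 1.36, 1.62 and 2.27 (-2.30, standard error 0.17, adjusted p = 2.56e-13), CD74, the invariant chain, from 184, 195 and 202 to 76.7, 79.4 and 82.0 (-1.29), and CIITA, the class II transactivator, fell by 0.86. HLA-DRA, at a mean of 0.63 CPM in the control, did not pass (0.06). Class II and class I genes have near-identical relatives, and their counts are uncertain. Of 5 tested class I chain genes 1 was higher and 2 were lower, with a median of -0.27 and a lowest value of -1.17, and B2M was the gene that rose (0.13). In the class I loading machinery 5 of 11 were higher and 1 was lower, with TAPBP up by 0.61, CALR, a chaperone gene, up by 0.30 and ERAP1, a peptide-trimming enzyme, down by 0.20.

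Genes of lipid metabolism were called higher more often than lower, against 27.6% higher and 27.4% lower over all genes tested. In fatty acid handling 22 of 37 tested members were higher and 4 lower (median 0.34, or 0.18 with a mean of at least 50 counts required), and in cholesterol and fatty acid synthesis 23 of 31 were higher and 3 lower (median 0.34). PPARG, the nuclear receptor that directs fat cell genes such as FABP4, was at 52.1, 49.8 and 51.7 CPM and rose to 116, 117 and 114 (1.18, standard error 0.04, adjusted p = 2.53e-21). CEBPA, its partner in fat cell differentiation, went from 0.63, 0.91 and 0.46 CPM to 6.00, 5.68 and 5.53 (3.09, standard error 0.22, adjusted p = 3.02e-13). PPARD and PPARA, the other receptors of this family, fell by 0.35 and 0.25. Binding and uptake genes were called higher in 8 of 11 tested and lower in 0, with LIPG, an endothelial-type lipase, up by 1.84 and VLDLR by 1.02. The droplet protein PLIN2 rose by 0.98 and the pyruvate dehydrogenase kinase PDK4 by 1.11, and the carnitine transferase CPT1C fell by 0.54. The defining adipocyte genes ADIPOQ, LEP and CIDEA had 0 counts in all 6 libraries, while the summed adipocyte list, which includes FABP4 and PPARG, was at 52.6 to 55.4 CPM in the control and 134 to 141 with shAHR#3.

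In the synthesis list FASN, fatty acid synthase, rose from 312, 328 and 342 CPM to 617, 603 and 691 (0.96, adjusted p = 4.84e-20). The transcription factor genes SREBF1 and SREBF2 rose by 0.54 and 0.44. Of the 17 cholesterol synthesis enzymes 12 were higher and 2 lower. NSDHL and PMVK fell by 0.55 and 0.52. NSDHL lies on chromosome X, whose genes are described below.

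**Figure D3:**
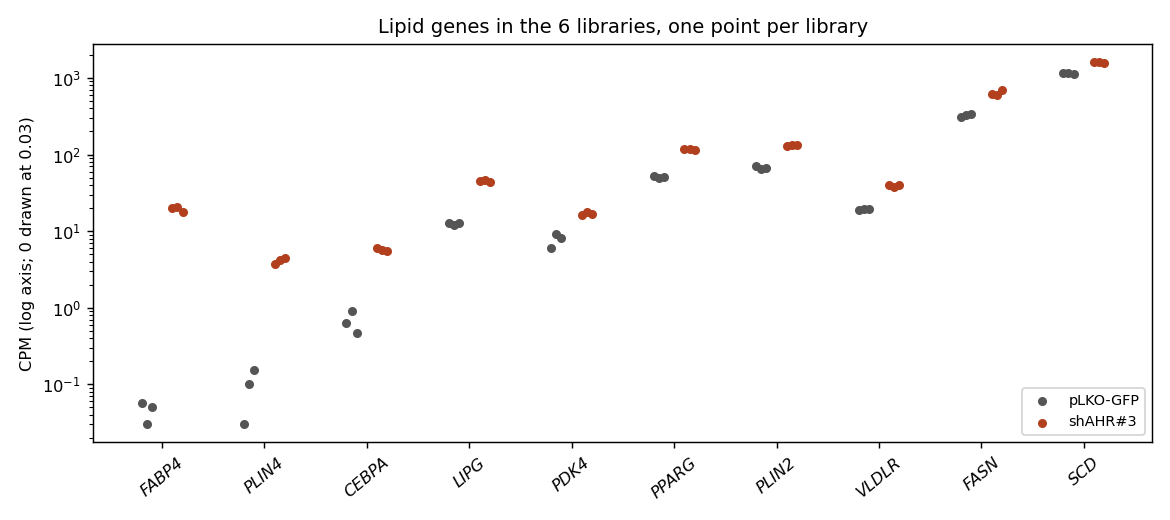
Level in CPM on a log axis of 10 genes of lipid handling and synthesis in each of the 6 libraries, pLKO-GFP in grey and shAHR#3 in red, with a count of 0 drawn at 0.03. All 10 are members called higher, and the lists also held 4 of 37 and 3 of 31 tested members called lower. In each gene shown the 3 shAHR#3 points lie above the 3 control points, from FABP4, at 0 or 1 counts in the control, to SCD, which rose by 0.46 on the log2 scale. Groups did not overlap in 59.4% of all genes tested.

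Matrix and adhesion genes moved in both directions with large changes. In the extracellular matrix list 25 of 43 tested members were higher and 12 lower (27.6% and 27.4% over all genes tested). TIMP3, a matrix-bound metalloprotease inhibitor, gained the most CPM of any protein-coding gene, going from 763, 758 and 759 to 2220, 2279 and 2187 (1.55, standard error 0.03, adjusted p = 4.26e-29). FN1, fibronectin, rose by 1.07, COL6A1 by 1.33 and COL4A1 by 0.99. Of 14 tested collagens 7 were higher and 5 lower, with a lowest value of -2.51. THBS1, thrombospondin, lost the most CPM of any tested gene, going from 1948, 2018 and 1964 to 835, 857 and 837 (-1.23, standard error 0.03, adjusted p = 2.07e-26), and TNC and COL12A1 fell by 2.35 and 1.57. Integrin genes rose in 9 of 11 tested, led by ITGB4 (1.39) and ITGB3 (0.99), and ITGB8 fell by 1.36. PODXL, a sialomucin, and IGFBP4, which binds IGFs, also gained much, with log2 fold changes of 1.46 and 0.74.

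Epithelial cadherin genes rose from low levels. CDH1, which encodes E-cadherin, was at 1.03, 0.70 and 1.03 CPM and rose to 4.28, 3.75 and 4.64 (2.20, standard error 0.23, adjusted p = 7.67e-10), and CDH3, which encodes P-cadherin, rose by 3.37 from 0.18 CPM. SNAI2, which encodes the repressor Slug, fell from 40.4, 40.5 and 39.7 CPM to 17.2, 19.5 and 17.9 (-1.14, standard error 0.07, adjusted p = 1.27e-15). ZEB1 and VIM, which mark mesenchymal cells, rose by 0.28 and 0.34, and CD44 fell by 0.48.

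In the guidance and growth factor lists 19 members of each were higher, of 29 and 32 tested, and 6 of each were lower. Among all genes tested 27.6% were higher and 27.4% lower, which also applies to the counts below. SEMA3A and NTN4, secreted guidance cues, rose by 1.43 and 1.38, and the plexin gene PLXND1 by 1.23. The receptor gene TGFBR2 went from 270 ± 3.28 to 541 ± 7.00 CPM (SD, n = 3 each; 1.00), IGF1R rose by 0.87 and PDGFRB by 1.17. EGFR fell by 0.53, KDR, the main VEGF receptor, by 3.62, VEGFA by 0.79, and INHBA, the activin A subunit, by 2.56. Feedback regulators of the ERK pathway rose in 10 of 12 tested and none was called lower, among them DUSP1 by 0.93 and DUSP6 by 0.40. Hypoxia response genes rose in 11 of 15 and none was called lower, with EGLN3 up by 1.56, P4HA1 by 0.63 and HIF1A by 0.43. EPAS1 rose by 0.44, and VEGFA, itself a hypoxia target, was among the genes that fell.

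In the DNA repair and respiratory chain lists more members were called lower than higher. Over all genes tested 27.4% were lower and 27.6% higher. Of 30 PARP and DNA repair genes 15 were lower and 4 higher, and all of these changes were under 2-fold. PARP1, the main poly(ADP-ribose) polymerase, fell from 283, 274 and 272 CPM to 230, 241 and 231 (-0.24, standard error 0.03, adjusted p = 6.79e-08). BRCA1 was 0.12 higher (adjusted p = 0.0160), a call that DESeq2 did not make (adjusted p = 0.0511) and that was lost without pLKO-GFP replicate 3 (0.09, adjusted p = 0.116) and without replicate 2 (0.11, adjusted p = 0.0547). Nuclear genes of the respiratory chain were lower in 13 of 26, led by COX7B (-0.51). Of the mitochondrial genes with the largest loss of CPM, MT-CYB fell by 0.29 and MT-CO2 by 0.22, while the groups overlapped for MT-ATP6 (-0.20) and for MT-CO1 (-0.11, adjusted p = 0.0253, and 0.316 with DESeq2). The ribosomal RNA MT-RNR2 rose by 0.24.

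Cell cycle genes were balanced. DNA replication genes were higher in 14 and lower in 13 of 41, and mitosis genes higher in 13 and lower in 15 of 37. Beside these and the next counts stand 27.6% called higher and 27.4% called lower over all genes tested. E2F1 fell by 0.49, and the inhibitor gene CDKN1A and the kinase gene CDK6 rose by 0.59 and 0.54. Lysosomal genes were balanced too, with 18 higher and 16 lower of 52, and the rise of CTSD and of the protease gene LGMN (0.77) stood beside falls of CTSV and CTSH (-1.65 and -1.25). Gelsolin family genes other than SCIN moved little, with SVIL at 0.33, CAPG at 0.21, GSN at 0.15 and FLII at -0.14. Ribosomal protein genes were higher in 26 of 42, with a median of 0.07, and this count fell to 17 without pLKO-GFP replicate 3. That library held RPS9 at 60.3 CPM against 135 and 145 in the other control libraries, and the log2 fold change of RPS9 was 0.63 with it and 0.31 without it.

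Metallothionein genes were lower in 3 of 3 tested, with MT1E down by 1.04, and zinc transporters were higher in 5 and lower in 5 of 13. Without shAHR#3 replicate 1 the lower calls of both groups fell from 8 to 5. Targets and regulators of YAP were higher in 6 and lower in 6 of 17, with ANKRD1 up by 0.33 and the tissue factor gene F3 down by 0.66. The NRF2 list was higher in 5 and lower in 4 of 16, with HMOX1 up by 0.50 and OSGIN1 down by 1.24. The ATF4 list was higher in 6 and lower in 6 of 17, with PHGDH up by 2.09 and PSAT1 down by 0.50. For all genes tested the shares were 27.6% higher and 27.4% lower.

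**Figure D4:**
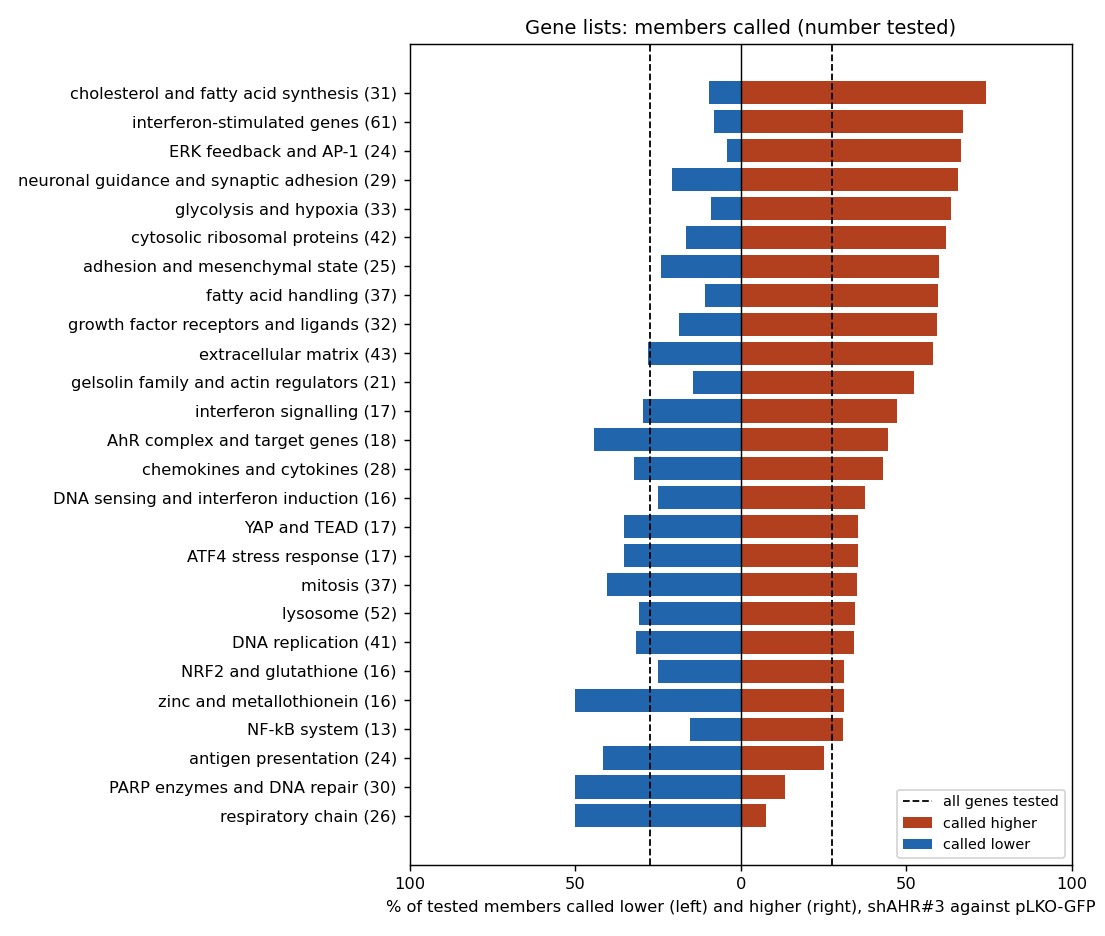
Share of the tested members of each gene list (number tested in parentheses) called higher (red, to the right) and lower (blue, to the left) with shAHR#3 against pLKO-GFP. Dashed lines give the shares over all genes tested, 27.6% higher and 27.4% lower, and synthesis of cholesterol and fatty acids lies farthest to the right.

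Markers of other cell types were set beside these groups. Of 12 leukocyte markers 6, among them CD3E, CD3D and MS4A1, had 0 counts in all 6 libraries, and the summed list was at 4.48 to 6.10 CPM in the control and 7.31 to 7.72 with shAHR#3. PTPRC, the common leukocyte antigen, had 1, 4 and 2 counts and then 16, 14 and 30. Of 6 endothelial markers only PECAM1 was tested, going from 2.74, 2.16 and 2.36 CPM to 11.7, 12.8 and 12.7 (2.36, standard error 0.13, adjusted p = 7.01e-16). CLDN5 was at 0 in all 6 libraries, and VWF went from 0 in all 3 control libraries to 9, 4 and 4 counts. Of the fibroblast list, DCN had 0 or 1 counts and COL3A1 0 to 2. Its 5 tested members held 3 called higher and 1 called lower (-2.51), while the summed list was at 15.4 to 19.0 CPM and then 30.9 to 33.6. Luminal keratin genes KRT8, KRT18 and KRT19 rose by 0.40, 0.32 and 0.30.

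Medians differed between chromosomes. On chromosome 12 the median log2 fold change of 785 tested genes was 0.18 and 49.6% were called higher, followed by chromosome 14 at 0.15 and chromosome 17 at 0.12. On chromosome X the median of 437 genes was -0.32 with 61.1% called lower, on chromosome 5 it was -0.25 and on chromosome 4 it was -0.22. Medians also differed within chromosomes. In windows of 20 Mb on GRCh38, the genes of chromosome 7 between 40 and 60 Mb had a median of -0.28, with 90.9% of 55 genes below 0, and those between 60 and 80 Mb one of 0.01. On chromosome 10 the first 2 windows had medians of -0.002 and -0.04, and the next, from 40 to 60 Mb, -0.28. OAS1 lies on chromosome 12, where the median was 0.08 between 100 and 120 Mb. STING1, which rose, lies on chromosome 5 between 120 and 140 Mb, where the median was -0.19. The AHR gene itself lies in the window of chromosome 7 below 20 Mb, with a median of -0.10. The other hairpin, shAHR#2, was compared with the same control libraries in these windows. On chromosome 7 its medians were -0.55 between 40 and 60 Mb, 0.12 between 60 and 80 Mb and -0.27 below 20 Mb. On chromosome 10 they were 0.004 and 0.12 in the first 2 windows and -0.47 in the next. The windows of OAS1 and STING1 were at 0.02 and -0.41. The low medians from 40 to 60 Mb were seen with both hairpins, whose values are not independent because they share controls. Chromosome content of the cells was not measured, and its part in these values was not tested.

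**Figure D5:**
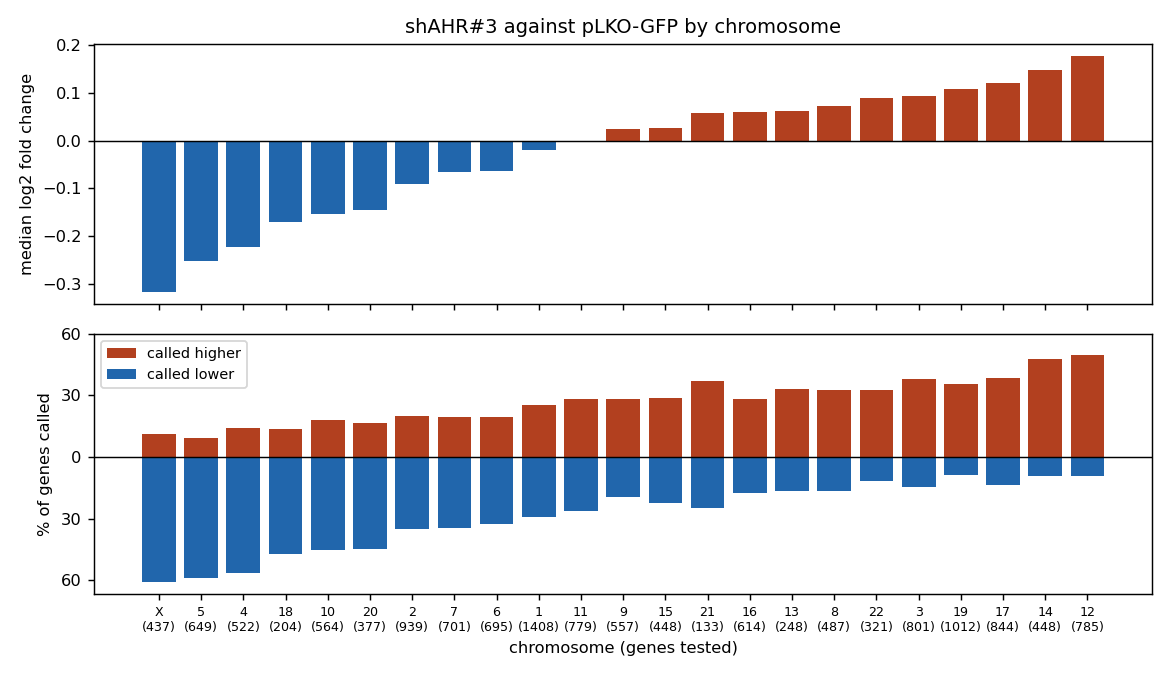
Median log2 fold change (shAHR#3 against pLKO-GFP) of the tested genes of each chromosome, above, and the share of its genes called higher (red) and lower (blue), below, ordered by the median with the number of genes in parentheses. Chromosomes X, 5 and 4 lie lowest, at -0.32, -0.25 and -0.22, and chromosomes 12, 14 and 17 highest, at 0.18, 0.15 and 0.12.

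Values with the other hairpin are set beside these from a model of all 9 libraries. Both comparisons share the control libraries, so their values are not independent. Of 14274 genes tested in that model, 6031 differed directly between shAHR#3 and shAHR#2 (42.3%). AHR was lower by 1.31 on the log2 scale with shAHR#3 and by 1.50 with shAHR#2, a difference of 0.19 (standard error 0.05, adjusted p = 0.00283). OAS1, SCIN, FABP4 and CTSD were each higher with shAHR#3 than with shAHR#2, by 1.18, 1.20, 1.40 and 0.29 (adjusted p = 1.45e-09, 6.42e-09, 4.16e-14 and 6.02e-10). Their rise was not particular to shAHR#3, as with shAHR#2 they were above the control by 2.14, 1.13, 7.44 and 0.25. ISG15 was 0.54 higher with shAHR#3 than with shAHR#2 (adjusted p = 6.32e-06), and with shAHR#2 it did not change beyond the spread (-0.01, adjusted p = 0.916). TBK1 was below the control with both hairpins, by 0.20 with shAHR#3 and 0.66 with shAHR#2, a difference of 0.46 (adjusted p = 4.66e-09). STING1 was at 0.84 with shAHR#2, and its difference of 0.14 between the hairpins did not pass (adjusted p = 0.476). PPARG also did not differ beyond the spread, at 1.23 with shAHR#2 (difference -0.06, adjusted p = 0.209). Other genes described above parted between the hairpins. CD274 was at 1.01 with shAHR#2 and -0.11 with shAHR#3 (adjusted p of the difference 7.71e-17). TIPARP was at 0.04 with shAHR#2 (adjusted p = 0.344), a difference of -0.22 (adjusted p = 2.11e-05). With shAHR#2 ANKRD1 was at -1.02 and TNFAIP3 at 0.61, opposite to shAHR#3, and DUSP1 at 0.03 (adjusted p = 0.768).

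Some of the large differences between the hairpins were in genes that shAHR#2 lowered more. The muscarinic receptor gene CHRM3 did not change beyond the spread with shAHR#3 (0.03, adjusted p = 0.855) and was at -4.80 with shAHR#2. The falls of PDE1C and CCBE1 were smaller with shAHR#3, where a few counts were left, than with shAHR#2, where both were at a mean of 0 CPM. In the other direction, PKIA, STC1, FSIP2 and TMEM154 were lower with shAHR#3 than with shAHR#2 by 1.58, 1.49, 1.43 and 1.42. Against the control, PKIA and FSIP2 were higher with shAHR#3, at 1.00 to 1.14 and 2.21 to 2.38 when each library was left out in turn. TMEM154 was at -0.13 to -0.11. STC1, stanniocalcin, fell by 0.65 with shAHR#3 and was at 0.84 with shAHR#2.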

How the data were processed

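RNA from MDA-MB-231 cells was made into libraries with the TruSeq Stranded mRNA kit and sequenced from a single end. STAR alignment to GRCh38.p13 was done by the authors, who deposited raw gene counts that were not normalized. The submitters' processing notes also name FastQC, featureCounts and Subread. The annotation release and strand setting are not given in the sources used here, so counts of overlapping, antisense and near-identical genes are uncertain.

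From these counts the 3 pLKO-GFP and 3 shAHR#3 libraries were fitted with edgeR 4.0.16 in R 4.3.3 (filterByExpr with a minimum count of 10 and total of 15, TMM, glmQLFit, glmQLFTest, a mean per group, no covariate). Each standard error is the log2 fold change over the square root of F. Bounds against 3 counts per library cover counting error only. The study used DESeq2, which is an alternative here (1.42.0). Direct contrasts of the hairpins came from the same test on 9 libraries. On simulated data edgeR recovered 184 of 200 changed genes among 14008, with 7 false calls, and 57 of 70 of those changed by 0.5 on the log2 scale. Far fewer genes changed there than the 7702 called in the real libraries, so these rates may not carry over to them. Positions are GENCODE 44 on GRCh38 (60463 of 60649 identifiers found), and promoters are from RefSeq.

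Members and gene lists were chosen with earlier results of these data known. The genes named were the markers of the comparison, genes the paper discusses, the 10 largest rises and falls with a mean log2 CPM of 2 or more, the 2 largest rises and falls of each list at 1 CPM or more, the 6 largest gains and losses of CPM, the 4 highest genes that appeared or disappeared each way and the 4 largest differences each way from shAHR#2. Further list members were named as examples after their values were seen. No set test was run. Alternatives were DESeq2, its size factors, other count filters, all 9 libraries, a replicate block, glmTreat, an adjusted p under 0.01 and leaving out each library. Some genes that the rule picked are not reported here.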

Additional observations from a re-analysis of the deposited data

How the results depend on the processing

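The number of genes called was 6732 with DESeq2 (3367 higher, 3365 lower), 7708 with DESeq2 size factors in edgeR, 7702 without the filter on low counts, 6978 with a mean of at least 50 counts, 7771 with all 9 libraries and 6293 at an adjusted p under 0.01. Leaving out 1 library gave 7046 to 7373 genes, 3463 to 3676 of them higher and 3570 to 3721 lower. Counts of at least 2-fold changes depended most on the expression floor. They were 580 higher and 338 lower in the fit reported, 256 and 119 with a mean of at least 50 counts, 271 and 133 when tested against 2-fold, 725 and 462 without the filter, and 582 to 639 and 341 to 389 without 1 library. AHR lay between -1.37 and -1.25 without 1 library. Replicate numbers are shared between groups, but same-numbered libraries did not deviate together by more than 0.068 (correlation of deviations from group means), so they were not taken as pairs. Each library correlated best with its own number, and with the replicate block 7852 genes were called. Of 146 tested genes named by the rule, all but CHRM3 kept their direction under the alternatives run, and 6 (BRCA1, SOCS1, PARP16, NDUFS1, RPS9 and MT-CO1) lost their call under at least 1 of them. CHRM3, which was not called, ran from -0.06 to 0.08 without 1 library. The cause was not tested. The list medians of NF-kB, NRF2, ATF4 and DNA replication genes, all near 0, crossed 0 under some alternatives. Chromosome medians were recomputed with DESeq2 size factors, with the stricter filter and without each library, and for chromosomes X, 5, 4, 12, 14 and 17 stayed on the same side of 0. Genes with few counts, such as CXCL10 and CCL5, are limited by depth.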
